A study of Mus musculus with 2 samples.

Results

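Natural killer (NK) cells of the mouse choroid plexus were taken as the barcodes that carried NK gene transcripts and no transcript of the Cd3 complex. The choroid plexus is the secretory tissue of the brain ventricles, and its stroma and surface hold resident and passing immune cells. The tissue came from female C57BL/6 mice of 3 or 24 months, with no treatment named in the labels. The plexuses of the lateral ventricles and of the 4th ventricle of 4 mice per age were pooled before digestion, and 1 droplet library was made per age. No value for a single mouse exists, no test between ages was possible, and age cannot be told apart from library. The values are UMIs, unique molecular identifiers that each stand for 1 captured transcript copy.

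Barcodes were kept with at least 500 genes, at most 25% mitochondrial UMIs and less than 10% of UMIs from Ttr, the main transcript of the plexus epithelium. NK cells were chosen by their UMI counts, as the kept barcodes with 0 UMIs of Cd3e, Cd3d and Cd3g, fewer than 10 UMIs of the complement genes C1qa, C1qb and C1qc, and at least 4 UMIs summed over Ncr1, Klrb1c, Gzma, Prf1, Nkg7 and Klra9. The rule found 52 barcodes among 5822 kept and 19584 deposited ones, 41 at 3 months and 11 at 24 months. T cells, the lymphocytes set beside them, needed a Cd3 UMI and at least 3 UMIs of Cd3e, Cd3d, Cd3g, Trac and Trbc2, which gave 52 barcodes at 3 months and 196 at 24 months. The NK cells had a median of 2512 UMIs at 3 months and 2542 at 24 months, and the T cells had 2553 and 2064. The whole libraries held 111403078 and 116777113 UMIs. They shared 29 barcode sequences, 0 of them among the NK cells.

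NK cells are lymphocytes without rearranged antigen receptors. They read other cells through germline receptors, many of which signal through the small membrane adaptors encoded by Tyrobp (DAP12) and Fcer1g (the Fc receptor gamma chain). Ly49 receptors, encoded by the Klra genes, mostly bind MHC class I and hold the cell back, and a few of them activate it. On activation the cell releases granules with perforin, which opens membranes, and granzymes, which are proteases that start cell death. Group 1 innate lymphoid cells (ILC1) share most of these genes, and the rule does not separate them from NK cells.

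The 6 genes of the rule describe the members and support no comparison with T cells. Nkg7, a granule membrane protein, had a UMI in 40 of 41 NK cells at 3 months and in 10 of 11 at 24 months. Klra9, a Ly49 receptor, was found in 26 and 5 cells. Gzma, the gene of granzyme A, was found in 21 and 7 cells. Klrb1c, the gene of NK1.1, was found in 19 and 5 cells. Prf1, the gene of perforin, was found in 21 and 1 cells. Ncr1, the gene of the activating receptor NKp46, was found in 8 and 4 cells. Thus Nkg7 was near general, and the most specific NK gene, Ncr1, was seen in 12 of 52 cells. At the edge of the rule, 3 barcodes per library held exactly 4 of these UMIs and were inside, and 1 barcode at 3 months and 2 at 24 months held 3 and were outside. No NK cell had more than 2 complement UMIs.

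The adaptor genes, which the rule did not use, were found in 51 of the 52 cells. Tyrobp and Fcer1g together gave at least 2 UMIs in 41 of 41 cells at 3 months and in 10 of 11 at 24 months. The remaining cell of 24 months carried neither adaptor, 1 Trac UMI and 5 Cd8b1 UMIs, which are T cell transcripts. Tyrobp had 0 to 13 UMIs per cell with a median of 5 at 3 months, and 0 to 17 with a median of 8 at 24 months. Fcer1g had 1 to 21 with a median of 6 at 3 months, and 0 to 17 with a median of 8 at 24 months. In the Ttr-rich barcodes of 3 months, which should lack the gene, 1.28% had a Tyrobp UMI at a median depth of 17689 UMIs, against 95.1% of NK cells. After thinning each cell to 1000 UMIs, the share with a Tyrobp UMI at 3 months was 80.5% in NK cells, 21.2% in T cells and 0% in the Ttr-rich barcodes drawn.

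Of the other immune classes, neutrophil markers were at 0 UMIs for 8 of 8 genes. Of 11 genes of gamma delta T cells and NKT cells, which are kinds of T cell, 6 were at 0. The others were present, with 30 UMIs in 17 members at 3 months and 3 in 2 at 24 months. Of 9 ILC3 genes 6 were among the measured genes, including Ncr1, which is in the rule. Of these 6 ILC3 genes 4 were at 0, among them Il23r. Of 12 ILC2 genes 6 were at 0, among them Il13, Il5 and Il1rl1. The other ILC2 genes were present, and the list summed to 46 UMIs in 21 members at 3 months and 13 in 5 at 24 months. Calca had a UMI in 7 and 0 members, Gata3 in 5 and 3, and Rora in 6 and 3. Epithelial transcripts were present in all 52 members, with medians of 63 and 40 UMIs at the younger and older age. They summed to 27880 and 13770 CPM (counts per 1000000 UMIs of the group), against 291300 and 297400 in the Ttr-rich barcodes and 25070 and 21730 in T cells, and their part in the members' values was not tested. A total of 5 members, 2 at 3 months and 3 at 24 months, are called members with markers of another class. Each held at least 5 UMIs of endothelial and mural, of mesenchymal or of MHC class II genes, or a Trac UMI, a limit set after the values were seen that does not use macrophage or epithelial UMIs. Macrophage genes reached 5 UMIs in 4 members, 2 of which are among the 5, and the other two, of 3 months, held 5 and 6, the former with 534 epithelial UMIs. One of 3 months held 127 endothelial and 65 mural UMIs. Another held 56 Il12b, 28 Ccr7 and 25 H2-Eb1 UMIs, which are dendritic cell transcripts. At 24 months, 1 held 5 UMIs of MHC class II genes, 1 was the cell without adaptors, and 1 held 15 mesenchymal UMIs together with 66 UMIs of proliferation genes. This last cell had 8451 UMIs, which is 23.4% of all UMIs of the NK cells of 24 months. Proliferation genes reached 10 UMIs in 2 cells at 3 months and in 1 at 24 months.

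**Figure D1:**
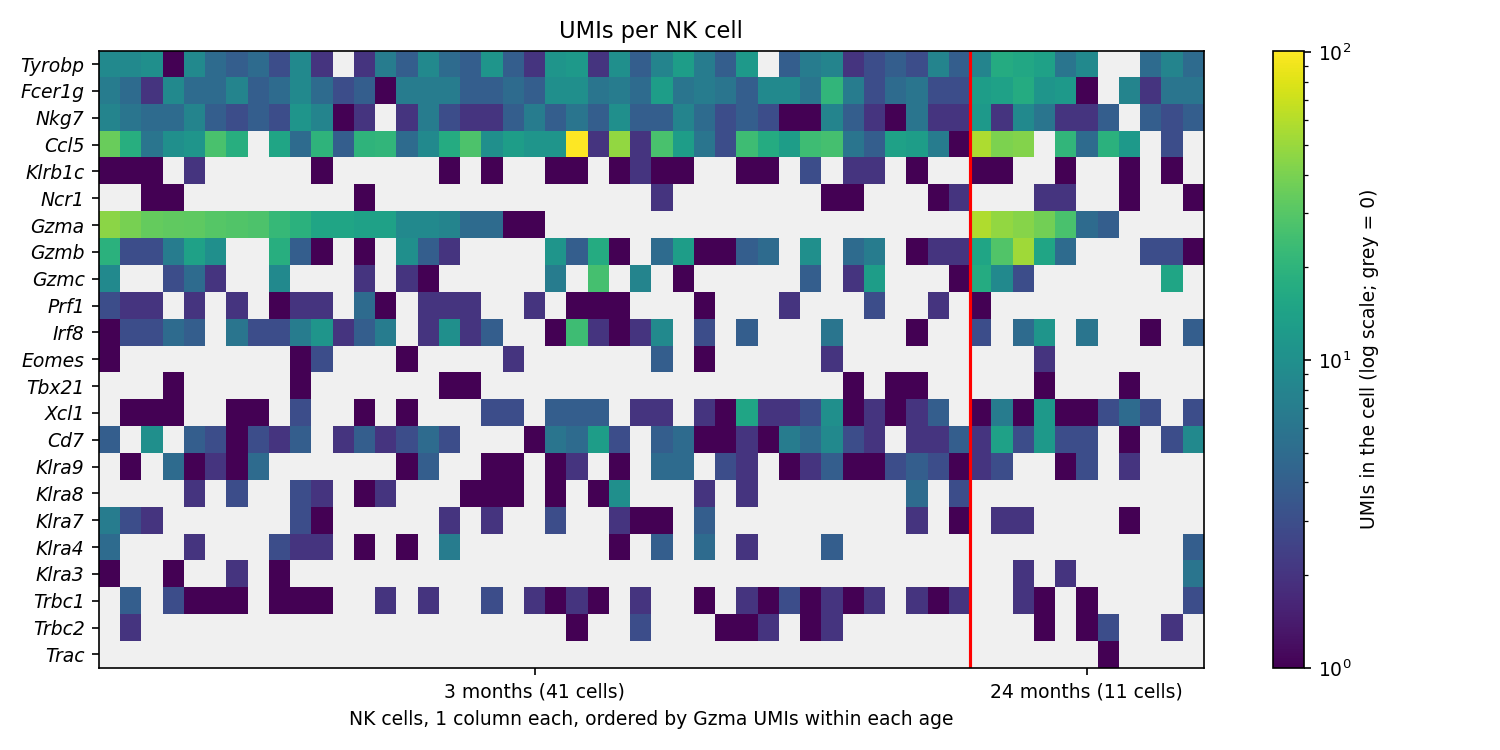
UMIs of 23 genes in each of the 52 NK cells, 1 column per cell, on a logarithmic colour scale with grey for 0; the red line separates the 41 cells of 3 months from the 11 of 24 months, and cells are ordered by Gzma within an age. Fcer1g fills all columns of 3 months, Gzma is high in some cells and 0 in others, and Klra8 is empty at 24 months.

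NK cells made up a smaller part of the kept barcodes in the library of 24 months, and T cells a larger part. NK cells were 1.501% of the kept barcodes at 3 months (95% Clopper-Pearson interval 1.08 to 2.03) and 0.356% at 24 months (0.178 to 0.636), a ratio of 0.237 (0.110 to 0.470). T cells were 1.90% (1.43 to 2.49) and 6.34% (5.51 to 7.26), a ratio of 3.33 (2.44 to 4.62). There were 0.789 NK cells per T cell at 3 months and 0.0561 at 24 months, 14.1 times fewer (7.09 to 30.3). Among barcodes with a UMI of Ptprc, the pan-leukocyte gene CD45, NK cells were 12.7% at 3 months and 2.66% at 24 months. Without the 5 members with markers of another class, the ratio of NK shares was 0.181. These intervals cover counting error only, and the spread between mice within a pool is not in them.

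The Cd3 condition split the barcodes with NK genes differently at the 2 ages. Barcodes with at least 4 UMIs of the 6 NK genes and fewer than 10 complement UMIs numbered 64 at 3 months and 66 at 24 months, so their number was nearly the same. Of these, 23 at 3 months had a Cd3 UMI (35.9%, interval 24.3 to 48.9), against 55 at 24 months (83.3%, 72.1 to 91.4). At 24 months, 53 of the 55 had 0 or 1 adaptor UMIs, and these 53 carried 70 Trac, 55 Cd8a, 67 Cd8b1 and 34 Gzmk UMIs, which are genes of T cells and, for Gzmk, of a granzyme of memory T cells. At 3 months, 14 of the 23 had at least 2 adaptor UMIs.

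**Figure D2:**
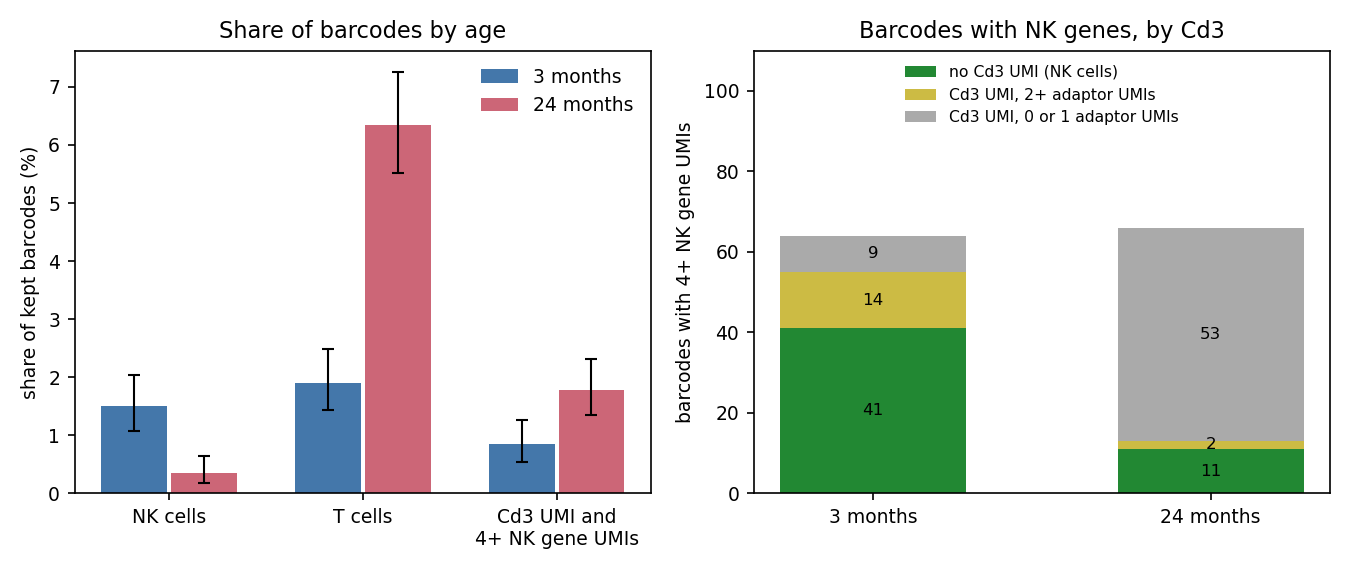
Left, share of kept barcodes in percent for NK cells, T cells and barcodes with a Cd3 UMI and at least 4 NK gene UMIs, by age, with 95% Clopper-Pearson intervals from 1 library per age. Right, number of barcodes with at least 4 NK gene UMIs, split by Cd3 and by adaptor UMIs; 41, 14 and 9 barcodes at 3 months stand against 11, 2 and 53 at 24 months.

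The 14 barcodes of 3 months with Cd3 and adaptor UMIs carried Cd3g almost alone among the 3 Cd3 genes. They held 51 Cd3g UMIs in 14 of 14 barcodes, 1 Cd3d UMI, 0 Cd3e UMIs, 0 Trac UMIs and 0 UMIs of Cd8a, Cd8b1 and Cd4. Receptor beta chain transcripts were present, with 13 Trbc1 UMIs in 9 barcodes and 11 Trbc2 UMIs in 4. Trbc2 was at 278 CPM in the 14 barcodes, 106 in NK cells and 664 in T cells with fewer than 4 NK gene UMIs. Among barcodes with 1 to 9 Cd3 UMIs at 3 months, Cd3g was the only Cd3 gene in 13 of these 14 (92.9%, 66.1 to 99.8). It was so in 1 of 21 barcodes with 0 or 1 adaptor UMIs and no NK gene UMI (4.76%, 0.120 to 23.8). Their median Cd3 UMIs were 3.5 and 4, so the depth of Cd3 was alike. At 24 months the second kind of barcode had Cd3g alone in 31 of 112 (27.7%, 19.6 to 36.9), so Cd3g alone also occurred there without NK genes.

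Genes not used to pick these 14 barcodes lay above the T cell level for Irf8, Cd7 and Il2rb, at varying distance from the NK level. At 3 months Irf8 was at 1064 CPM in NK cells, 606 in the 14 barcodes and 22.5 in the 35 T cells with fewer than 4 NK gene UMIs. Cd7, a lymphocyte surface receptor, was at 1031, 1439 and 135 CPM. Il2rb, the receptor chain for interleukins 2 and 15, was at 1628, 1944 and 349 CPM. Il7r, the interleukin 7 receptor chain of most T cells, had 0 UMIs in the NK cells, 0 in the 14 barcodes and 49 in the 35 T cells. Car2, a carbonic anhydrase, was at 368 CPM in NK cells and 177 in the 14 barcodes, and Klra4 at 319, 126 and 0 CPM. Klra7 was at 278 CPM in NK cells, but at 50.5 in the 14 barcodes and 33.8 in the T cells. The granzymes differed as well, of which Gzma belongs to the rule: Gzmb was at 1514 CPM in NK cells and 3257 in the 14 barcodes, Gzmc at 777 and 5175, and Gzma at 3330 and 101, with a Gzma UMI in 21 of 41 cells against 1 of 14. When membership was set by at least 2 adaptor UMIs in place of 0 Cd3 UMIs, there were 55 NK cells at 3 months and 12 at 24 months, and the ratio of shares was 0.193 (0.0940 to 0.365).

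**Figure D3:**
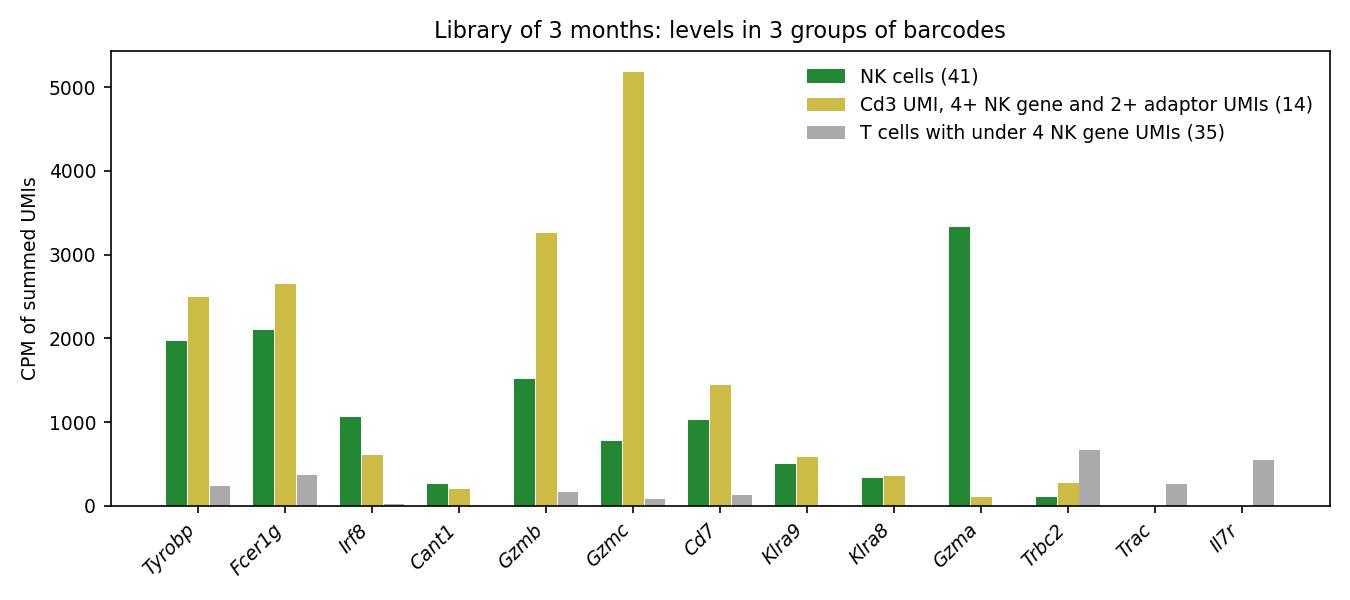
CPM of summed UMIs at 3 months for 13 genes in the NK cells (41), the barcodes with a Cd3 UMI and both NK gene and adaptor UMIs (14) and the T cells with fewer than 4 NK gene UMIs (35). The first and second groups lie within 1.5-fold of each other for Cd7 (1031 and 1439 CPM) and Klra9 (499 and 581). They lie further apart for Irf8, Gzmb, Gzmc and Gzma. The adaptors, some NK genes, Trac and Trbc2 were used to pick the groups.

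Cd3g and Cd3d are neighbours on chromosome 9 (GENCODE vM21, build mm10) and are read in opposite directions from start sites 1355 bases apart. Cd3g lies at 44969572 to 44980431 on the minus strand and Cd3d at 44981786 to 44987339 on the plus strand. Their start regions are shown because UMIs of the first came here without UMIs of the second, beside those of Ncr1 and Fcer1g, the defining receptor and the most general adaptor of the members. Each is 300 bases around the start site from RefSeq (GRCm38.p6), most of it upstream, read 5′ to 3′ on the strand of its gene. Capitals mark the letters TGTGGT (the RUNX core), CCGGAAG (an ETS site) and TCACACC (a T-box site), or their reverse complements.
Ncr1, chr7:4337465-4337764, plus strand: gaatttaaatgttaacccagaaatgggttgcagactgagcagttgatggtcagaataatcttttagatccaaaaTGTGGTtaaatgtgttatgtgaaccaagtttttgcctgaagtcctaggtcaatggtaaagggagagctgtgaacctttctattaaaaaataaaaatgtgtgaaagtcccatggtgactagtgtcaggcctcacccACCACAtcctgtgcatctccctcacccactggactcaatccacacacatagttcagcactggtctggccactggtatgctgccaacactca
Fcer1g, chr1:171234300-171234599, minus strand: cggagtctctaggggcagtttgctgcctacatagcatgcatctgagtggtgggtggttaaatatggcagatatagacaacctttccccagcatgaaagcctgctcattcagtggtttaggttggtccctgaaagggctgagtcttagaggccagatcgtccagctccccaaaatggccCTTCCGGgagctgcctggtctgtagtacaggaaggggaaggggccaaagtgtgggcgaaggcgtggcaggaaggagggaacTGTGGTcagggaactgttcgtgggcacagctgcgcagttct
Cd3g, chr9:44980382-44980681, minus strand: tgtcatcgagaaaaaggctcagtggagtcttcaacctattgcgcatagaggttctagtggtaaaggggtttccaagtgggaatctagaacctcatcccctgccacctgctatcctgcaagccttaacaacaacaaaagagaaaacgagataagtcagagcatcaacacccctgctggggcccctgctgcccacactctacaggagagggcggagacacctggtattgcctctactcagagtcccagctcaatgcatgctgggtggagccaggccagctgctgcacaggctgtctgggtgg
Cd3d, chr9:44981536-44981835, plus strand: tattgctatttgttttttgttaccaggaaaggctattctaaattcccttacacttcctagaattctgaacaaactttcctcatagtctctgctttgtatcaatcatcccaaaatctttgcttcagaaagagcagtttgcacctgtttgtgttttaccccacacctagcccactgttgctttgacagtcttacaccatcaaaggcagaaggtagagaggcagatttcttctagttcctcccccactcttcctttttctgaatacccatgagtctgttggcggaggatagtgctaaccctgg
The Ncr1 region held 2 RUNX core matches and the Fcer1g region 1 RUNX core and 1 ETS match, and the Cd3g and Cd3d regions held none of the 3. Of 27025 promoters of this length, 16.9% held the RUNX core, 9.12% the ETS letters and 3.96% the T-box letters on either strand.

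Against T cells, the NK cells carried more transcripts of Tyrobp, Fcer1g, Klra4, Klra7, Gzmb, Gzmc and Serpinb9 and fewer of 15 of 17 T cell genes. A gene counts as higher or lower here when its pooled CPM ratio is at least 1.5 either way, its 95% interval excludes 1 and both libraries have the same direction, with at least 20 UMIs and without the genes of the rule. Of 4480 genes, 332 were higher in NK cells (7.41%) and 241 were lower (5.38%). With TMM factors, which shift the median gene by -0.24 on the log2 scale, the split was 203 higher and 414 lower. Without the 5 members with markers of another class it was 252 higher and 278 lower. NK cells came mostly from 3 months and T cells mostly from 24 months, so the ratio within each library is given. The T cells of 3 months include 14 of 52 with at least 2 adaptor UMIs, against 5 of 196 at 24 months.

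Of the activating receptors and adaptors, 10 of 16 genes had enough UMIs. Of these 3 were higher and 2 lower, against 7.41% and 5.38% of all genes. The median log2 ratio was 0.55 against 0.02 for all genes. Tyrobp was at 1964 CPM in NK cells and 653 in T cells at 3 months (ratio 3.01, interval 2.36 to 3.87) and at 2438 and 52.2 at 24 months (46.7, 29.7 to 76.0). Fcer1g was at 2095 and 681 CPM at 3 months (3.08, 2.42 to 3.93) and at 2494 and 60.6 at 24 months (41.2, 26.8 to 64.9). The adaptors were thus at like levels in NK cells of both ages. Hcst, the adaptor DAP10 of the receptor NKG2D, was at 524 and 568 CPM at 3 months and at 360 and 633 at 24 months, so not above T cells. Klrk1, the gene of NKG2D, was at 188 and 149 CPM at 3 months and at 166 and 125 at 24 months. The 2 lower genes were Cd2, an adhesion receptor, and Cd247, the CD3 zeta chain, with 11 and 4 UMIs in the NK cells.

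Among inhibitory receptors, 9 of 20 genes had enough UMIs. Of these 4 were higher and 1, Pdcd1, was lower, against 7.41% and 5.38% of all genes. Klrd1, the CD94 partner of NKG2 receptors, was at 466 CPM in NK cells and 170 in T cells at 3 months, and at 526 and 169 at 24 months. Klre1, another lectin-like receptor, was at 376 and 163 CPM, and at 333 and 87.7. Klrb1b, the inhibitory NKR-P1B receptor, was at 237 and 71.0 CPM at 3 months, and Klra7 at 278 and 28.4. These receptor genes lie together on chromosome 6: Klrb1c starts at 128778485, Klre1 at 129577905, Klra4 at 130043731 and Klra7 at 130218605.

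Ly49 genes were found in 46 of 52 members, counting Klra9, which is in the rule, and in 33 of 52 without it. At 3 months, 2 of 41 cells had no Ly49 gene, 16 had 1, 9 had 2, 11 had 3 and 3 had 4. At 24 months, 4 of 11 had none, 2 had 1 and 5 had 2. Klra9, Klra8, Klra7 and Klra4 were found in 26, 16, 14 and 13 of 41 cells at 3 months, and in 5, 0, 3 and 1 of 11 cells at 24 months. Klra8, which encodes the activating receptor Ly49H, had 40 UMIs in NK cells at 3 months with 0 to 10 per cell, and 0 UMIs at 24 months, where 0 of 11 cells allows a share of up to 27.3% with a UMI (3 counts of 11; the Clopper-Pearson interval ends at 28.5%). It was at least 3.94-fold lower at 24 months against the floor of 3 counts. In the whole library it had 62 UMIs in 25 barcodes at 3 months and 0 UMIs at 24 months. The labels give C57BL/6 with no substrain for both pools, and whether the pools differ at the Ly49 locus was not tested. Klra8 stayed lower without the 5 members with markers of another class, with 38 and 0 UMIs. Klra9 had 90 and 26 library UMIs and Klra3 6 and 14, so the absence at 24 months did not extend to these. Klra4 had 48 and 4 library UMIs and Klra7 39 and 9. Of 4 Ly49 genes counted between the ages in NK cells, Klra9 included, 2 were lower at 24 months, Klra8 and Klra4, and 0 higher. Among all genes 4.05% were lower and 6.34% higher. Klra4 was at a ratio of 0.347 (0.0902 to 0.963), and at 0.503 (0.130 to 1.40) without those 5 members. Ly49 genes are near-identical copies, so reads may be split between them and each single value is uncertain.

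**Figure D4:**
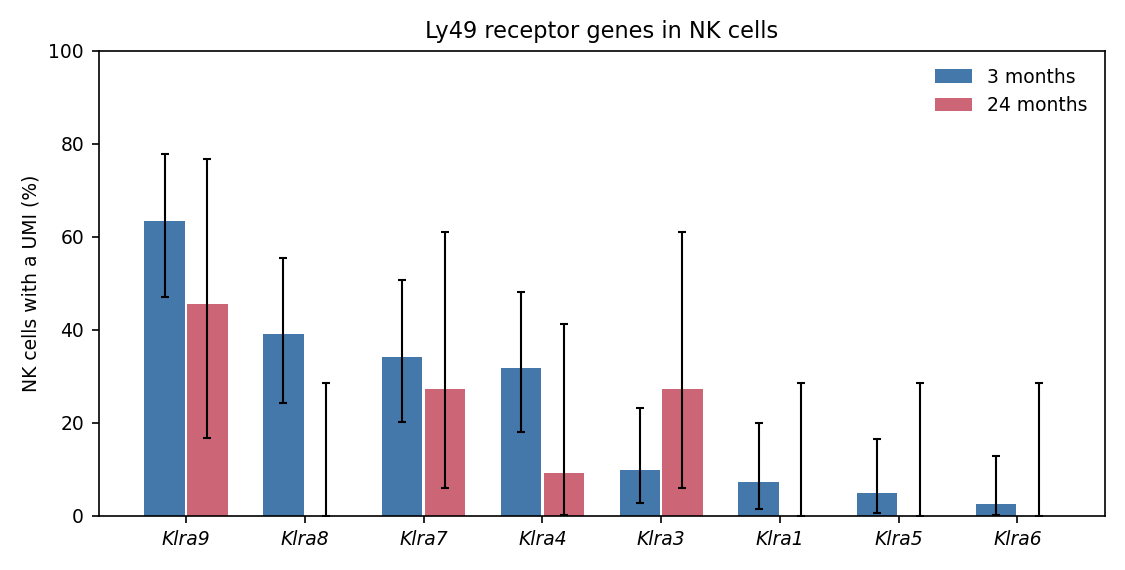
Percent of NK cells with a UMI of 8 Ly49 genes, by age, with 95% Clopper-Pearson intervals, for 41 cells at 3 months and 11 at 24 months. Klra8 is at 39.0% and 0%, and the intervals of all 8 genes overlap between the ages.

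Granule genes formed the role with the most higher members. Outside the rule, 12 of 15 had enough UMIs. Of these 9 were higher and 1, Gzmk, was lower, against 7.41% and 5.38% of all genes. The median log2 ratio was 0.99 against 0.02 for all genes. Gzmb, granzyme B, had 0 to 19 UMIs per NK cell with a median of 2 at 3 months and 0 to 52 with a median of 3 at 24 months. Its level was 1514 CPM in NK cells and 624 in T cells at 3 months (2.42, 1.87 to 3.16), and 3408 and 194 at 24 months (17.5, 13.3 to 23.2). Gzmc, granzyme C, had a UMI in 20 members, of which 19 also had Gzmb. Serpinb9, which inhibits granzyme B in the cell that makes it, was at 892 and 298 CPM at 3 months and at 776 and 161 at 24 months. Ctsw, a cathepsin of cytotoxic lymphocytes, was at 720 and 376 CPM, and at 998 and 242. Of 14 genes of the machinery that docks and releases granules, 10 had enough UMIs. Of these 1 was higher, Dock8, and 0 were lower, against 7.41% and 5.38% of all genes. Granzyme genes B, C and F are neighbouring paralogs on chromosome 14, and their counts are uncertain for the same reason as the Ly49 genes.

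Gzma divided the NK cells of 3 months. It had 0 UMIs in 20 of 41 cells, 1 UMI in 2 and 5 to 45 in 19. At 24 months it had 0 in 4 of 11 cells, 4 in 1 and 5 to 58 in 6. Both kinds of cell had adaptors, with Tyrobp at 2090 CPM in the cells without Gzma and 1883 in those with at least 5 UMIs at 3 months. Their median depths were 2465 and 2585 UMIs.

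Of the transcription factors, 18 of 21 had enough UMIs, 3 were higher and 4 lower, against 7.41% and 5.38% of all genes. Irf8, a factor of NK and myeloid cells, had the highest pooled ratio of the ranked genes. It was at 1064 CPM in NK cells and 99.3 in T cells at 3 months (10.7, 6.16 to 20.1), and at 831 and 6.27 at 24 months (133, 41.3 to 679). It had 0 to 24 UMIs per cell at 3 months with a median of 2, and a UMI in 33 of 52 members. Of the 130 Irf8 UMIs of 3 months, 24 came from the member with dendritic cell transcripts and 11 from the one with endothelial and mural UMIs. Id2, which all innate lymphoid cells need, was at 671 and 284 CPM at 3 months and 443 and 391 at 24 months. The lower factors were Ets1, Ikzf3, Tcf7 and Lef1. Eomes and Tbx21, the factors that define NK cells and ILC1, were each seen in 9 of 52 cells, and 16 had either.

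The rest of the ranking held mixed roles. Cd7 was at 1031 CPM in NK cells and 404 in T cells at 3 months, and at 1385 and 87.7 at 24 months. Txk, a Tec family kinase, was at 736 and 270 CPM, and at 610 and 91.9. Cant1, a nucleotidase, was at 262 and 42.6 CPM, and at 222 and 14.6. The ratio at 3 and at 24 months was 3.99 and 6.63 for Car2, 7.78 and 4.97 for Padi2, 4.45 and 5.69 for Tmem2, and 2.61 and 3.64 for Ugcg. When T cells with at least 4 NK gene UMIs were left out, the pooled ratio rose from 36.8 to 101 for Irf8, from 10.97 to 37.5 for Tyrobp, from 6.66 to 25.8 for Gzmb and from 4.69 to 49.9 for Gzmc.

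**Figure D5:**
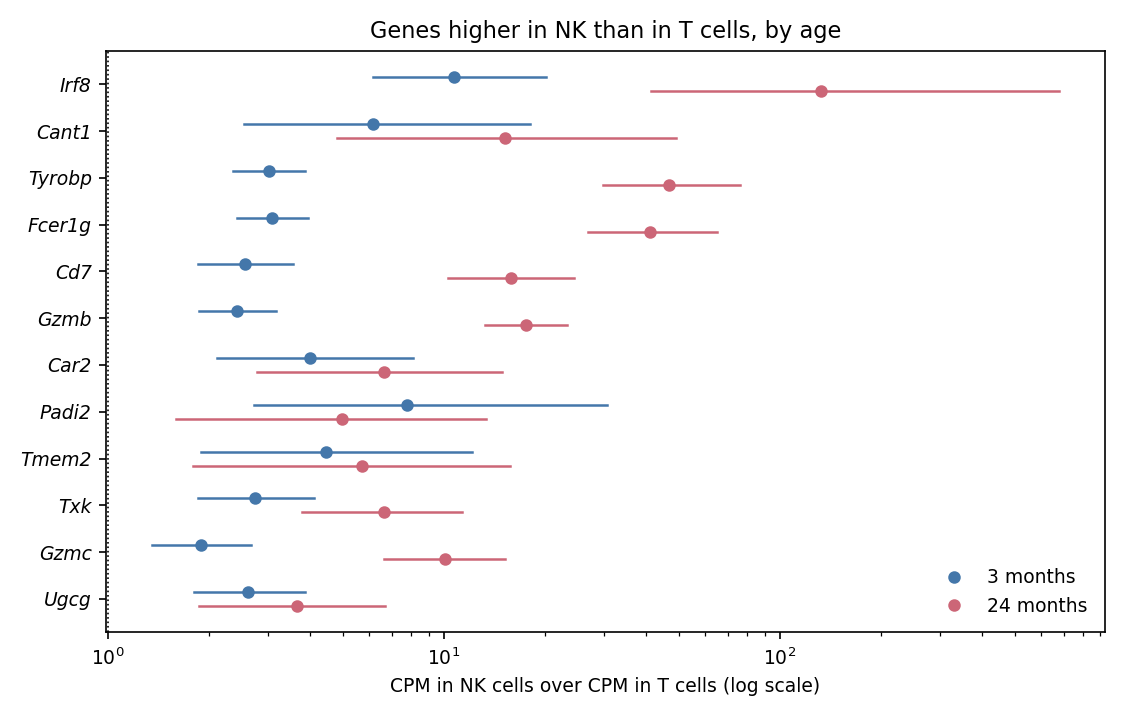
CPM in NK cells over CPM in T cells on a logarithmic axis for the 12 highest ranked genes, by age, with exact 95% binomial intervals from counting error. All 12 lie above 1 at both ages; Irf8 is at 10.7 and 133.

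T cell genes were low in NK cells, with Trbc1 as the exception. Of 17 T cell genes outside the rule, 0 were higher and 15 lower, against 7.41% and 5.38% of all genes. The median log2 ratio was -2.77 against 0.02 for all genes. Cd3 UMIs set both classes, so these counts are a description. The 2 not counted as lower were Trbc1 and Ccr7, and all 28 Ccr7 UMIs came from the 1 member with dendritic cell transcripts. Cd8a, Cd4, Themis, Trat1 and Cd40lg had 0 UMIs in the 52 NK cells and 88, 55, 53, 56 and 54 in the T cells. Against the floor of 3 counts over the class, Cd8a was at least 7.49-fold, Ly6c2 at least 9.37-fold and Tnfsf8 at least 12.1-fold lower in NK cells. Acp5 was at least 4.43-fold lower. Trbc1, a constant segment of the T cell receptor beta chain, was as high in NK as in T cells at 3 months. It was at 376 CPM in NK cells and 362 in T cells there, with a UMI in 27 of 41 NK cells. In these NK cells Trac had 0 UMIs, and Trbc2 was at 106 against 816 CPM in T cells. Trac and Trbc2 helped to choose the T cells, so their values are a description. At 24 months Trbc1 was at 194 and 666 CPM.

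Cytokine receptor and homing genes held both higher and lower members. Of 23 cytokine receptor and signal genes, 18 had enough UMIs. Of these 2 were higher, Il2rb and Jak1, and 3 lower, Il7r, Il2ra and Il18r1, against 7.41% and 5.38% of all genes. Il2rb was at 1628 CPM in NK cells and 632 in T cells at 3 months and at 1385 and 397 at 24 months. Il7r had 1 UMI in the NK cells and 240 in the T cells. Of 23 homing and adhesion genes, 18 had enough UMIs, 4 were higher and 3 lower, against the same shares. Ccr2, a receptor for monocyte chemokines, was at 491 and 192 CPM at 3 months, and Itga1, the collagen receptor CD49a, at 311 and 135. Of the Itga1 UMIs, 12 came from the member with 127 endothelial and 65 mural UMIs, and no other NK cell held more than 4. Cxcr6 was at 155 and 291 CPM. S1pr1, through which lymphocytes leave tissue, had 3 UMIs in NK cells.

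Maturation and residency genes gave no single picture. Of 15 genes of ILC1 and tissue residency, 14 had enough UMIs, against shares of 7.41% higher and 5.38% lower among all genes. Of the 14, 2 were higher, Itga1 and Tnfsf10, and 6 lower, among them Cxcr6, Il7r, Rora and Cd69. Itga1 had a UMI in 23 of 52 members, and 12 of its UMIs came from the member with 127 endothelial UMIs. Of 12 genes of the immature end, 9 had enough UMIs, 1 was higher, Cd7, and 6 lower, against the same shares. Of 13 genes of the mature end outside the rule, 8 had enough UMIs, 2 were higher and 2 lower, against the same shares. Cx3cr1 and Ly6c2, genes of mature NK cells, had 0 UMIs. Whether the members are circulating NK cells, resident NK cells or ILC1 was not tested.

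Among secreted factors, Ccl5 was at like levels in NK and T cells. This chemokine of cytotoxic lymphocytes had 0 to 101 UMIs per NK cell with a median of 13 at 3 months and 0 to 57 with a median of 12 at 24 months. The 101 UMIs were in the member with dendritic cell transcripts, and the next highest cell of 3 months held 48. Ccl5 was at 5441 CPM in NK cells and 4371 in T cells at 3 months and at 5569 and 5980 at 24 months. Xcl1, which attracts dendritic cells, was at 630 and 632 CPM at 3 months and at 1025 and 242 at 24 months. Of the 37 Xcl1 UMIs in NK cells at 24 months, 12 came from the proliferating cell. Of 15 cytokine and chemokine genes, 9 had enough UMIs. Of these 1 was higher, Tgfb1, and 3 lower, Ifng, Ltb and Mif, against 7.41% and 5.38% of all genes. Ifng had 3 UMIs in the NK cells.

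Between the ages, 72 of 1135 genes were higher at 24 months in NK cells (6.34%) and 46 lower (4.05%). In T cells it was 122 (3.26%) and 181 (4.84%) of 3739. The 11 cells of 24 months hold 36091 UMIs against 122219, so single cells carry weight. Without the 5 members with markers of another class, 28 genes were higher and 26 lower of 872, and 39 of these calls were among the 118. With TMM factors the split was 27 higher and 102 lower. Epithelial genes summed to 27880 CPM in the NK cells of 3 months and 13770 in those of 24 months, and their part in these differences was not tested.

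The ranked age genes rested partly on single members. Hist1h1b, a histone of dividing cells, was at 57.3 CPM at 3 months and 720 at 24 months, and 96.2% of the UMIs of 24 months came from the proliferating cell. Without the members with markers of another class its ratio was 0.664. Il12b, Ccr7, H2-Eb1 and Kdr were at 0 at 24 months, and all of their UMIs at 3 months came from 1 cell each. Flt1 had 39 of its 40 UMIs in 1 cell. Eif5a, a translation factor, was at 278 and 887 CPM (3.19, 1.90 to 5.32) and at a ratio of 2.95 (1.57 to 5.41) without those members. Ybx3 was at 81.8 and 333 CPM, a ratio of 4.06 (1.61 to 10.5) that became 3.10 (0.908 to 9.75). Zc3h15, Ikzf2, Pgk1, H2afy and Ifnar1 had ratios of 3.69, 3.39, 2.87, 2.82 and 2.82. Without those members the ratios were 2.33, 2.11, 2.11, 2.33 and 1.69, and all 5 intervals included 1. Lmo4, a LIM domain factor, had 27 UMIs in 14 cells at 3 months and 0 at 24 months. Calca, a neuropeptide gene that is also on the ILC2 list, had 21 in 7 cells and 0.

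Of 9 granule genes counted outside the rule, 2 were higher at 24 months, Gzmb and Gzmc, and 0 lower, against 6.34% and 4.05% of all genes. Gzmb was at 1514 and 3408 (2.25, 1.78 to 2.84) and Gzmc at 777 and 1219 (1.57, 1.07 to 2.27). Without the 5 members with markers of another class, Gzmb was at a ratio of 2.40 (1.85 to 3.10), while Gzmc was at 1.32 (0.828 to 2.05), and with TMM factors Gzmc was at 1.30 (0.890 to 1.88), neither past the limits. For Gzmb, 42.3% of the UMIs of 24 months came from 1 cell. Gzma and Prf1 helped to choose the members, so their values are a description. Gzma was at 3330 CPM at 3 months and 6207 at 24 months (1.86, 1.58 to 2.20), and at a ratio of 1.47 (1.19 to 1.81) without those 5 members. Prf1 had 41 UMIs in 21 of 41 cells at 3 months and 1 UMI in 1 of 11 at 24 months, 335 and 27.7 CPM (0.0826, 0.00204 to 0.487), and it was at 38 and 0 UMIs without those 5 members. Of the 10 homing genes counted, 0 were higher and 3 lower at 24 months, against 4.05% lower among all genes. Among them Itgal, an integrin chain of lymphocytes, was at 278 and 55.4 CPM, and Ccr7 was in 1 cell. With TMM factors 5 of the 10 homing genes were lower and 0 higher. Without the 5 members 0 of 9 counted homing genes were higher or lower.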

How the data were processed

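Choroid plexus cells of 2 pools, 1 library per age, were measured by 10x Genomics 3′ sequencing. The authors deposited UMI counts per gene and barcode, made with Cell Ranger 4.0.0 on mm10 per the submitters' processing notes; how barcodes were called was not among the steps named. The members and gene lists were chosen with earlier results of these data known. UMIs were summed per class and library with Python 3.11.15, scipy 1.17.1 and pandas 2.3.3, and CPM is per 1000000 UMIs of the class. Ratios have exact conditional binomial and shares Clopper-Pearson 95% intervals. Log2 ratios used a pseudocount of 10 CPM. Named genes were the 12 highest and 8 lowest pooled ratios with at least 50 UMIs (NK against T), the 8 highest and 8 lowest for age with 1 direction under every scaling, the rule genes, and list members with at least 20 UMIs in NK cells; others named were chosen after their values were seen. Doublets were not removed: Scrublet (scanpy 1.11.5) marked only 0.153% and 0.0384% of barcodes by its default, which failed, and leaving out the highest scores was an alternative. TMM used edgeR 4.0.16. The summing and calling steps were tested on simulated data. Of 20375 symbols, 20104 were in GENCODE vM21.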

Additional observations from a re-analysis of the deposited data

Results flagged for a closer look

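The share of NK cells and that of T cells differed between the ages in opposite directions. The ratio of 24 to 3 months was 0.237 for NK cells and 3.33 for T cells, with 1 library per age, and the difference between the 2 ratios was not tested.

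At 3 months, 14 barcodes outside the NK class had a Cd3 UMI, at least 4 NK gene UMIs and at least 2 adaptor UMIs, and 9 of them were in the T cell class. At 24 months there were 2 such barcodes.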

How the results depend on the processing

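The membership rule, filters and scalings were varied 1 at a time; 3 alternatives (adaptor UMIs in place of the Cd3 condition, members with markers of another class left out, T cells with NK genes left out) were chosen after seeing the data. The lower share of NK cells and the higher share of T cells at 24 months kept their direction under every alternative run; the ratio for T cells was 2.43 among barcodes with a Ptprc UMI. With 0 UMIs of Trac, Trbc1, Trbc2 and Trdc the NK ratio was 0.368 (0.102 to 1.12), an interval that includes 1. The 118 genes that differed with age in NK cells became 33 under this strict receptor rule (12 and 5 cells left), 56 with at least 50 UMIs, 208 with no minimum, and 54 without the members with markers of another class. Hist1h1b then turned from 12.6 to 0.664. The 573 genes that differed from T cells became 267 with those receptor genes at 0 and 343 with at least 50 UMIs. The share of NK cells of 3 months with a Tyrobp UMI was 80.5% after thinning to 1000 UMIs, 94.7% at 1500 and 95.1% unthinned. Of 20 genes named against T cells, 20 kept their call in each alternative other than the strict receptor rule, where 15 did. Of the named age genes, 4 of 12 kept their call without the members with markers of another class and 0 of 11 under the strict receptor rule. No paired analysis was possible because each age was 1 library. No replicate could be left out for the same reason. With 11 cells at 24 months, genes of low level were not detectable there.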

Other observations

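Other genes differed between NK cells with and without Gzma at 3 months, with groups set on the measured value and no test. Xcl1 was at 1012 CPM in the 20 cells with 0 Gzma UMIs and 227 CPM in the 19 with at least 5. Ccl5 was at 6005 and 4865 CPM. Prf1, which like Gzma belongs to the rule, was at 183 and 488 CPM. Cells without Gzma had to reach 4 UMIs through the other rule genes, so the Prf1 values are a description. At 24 months Xcl1 was at 1178 CPM in 4 cells and 907 CPM in 6. Of the 23 Xcl1 UMIs of those 6 cells, 12 came from the proliferating cell with mesenchymal UMIs. The size of the gap at 24 months therefore rests largely on 1 cell.

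Actin genes were at 25530 CPM in NK cells at 3 months and 32750 at 24 months, and 4 of 16 counted were higher at 24 months and 0 lower, against 6.34% and 4.05% of all genes. Genes of glycolysis and amino acid uptake summed to 2226 and 3491 CPM, with 3 of 7 higher and 0 lower, against the same shares. With TMM factors, which shift the median gene by -0.268 on the log2 scale, 1 actin gene was higher and 1 lower, and 1 glycolysis gene was higher. Without the 5 members with markers of another class, 1 of 16 actin genes and 0 of 4 glycolysis genes were higher.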
